A study of Mus musculus with 13 samples.

Results

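The effect of co-transferred mouse embryos on the implantation site of a rat embryo was compared between day 9 and day 7 of pregnancy in mouse uteri. The comparison took its values from 9 of the 13 arrays of the study. Of 45101 probe sets, 45037 were not the array's own controls, and 22138 of these passed a filter on dim probe sets and were tested. It was chosen as a contrast of 4 groups: the difference between rat sites with and without co-transfer on day 9, minus the same difference on day 7. This quantity is called the interaction here, in log2 units, and it is positive where co-transfer went with a higher signal on day 9 than its difference on day 7 would give. A gene is said below to rise or fall by the sign of its interaction, and not by its change between the days.

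All recipients were female ICR mice with a listed weight of 25 gram, and all received embryos on day 3 of pseudopregnancy. The co-transfer sites held embryos of Wistar rats, flushed on day 5 of pregnancy, in uteri that were given mouse embryos, flushed on day 4, at the same time; 2 arrays came from day 9 and 3 from day 7. The rat-only sites held the same kind of rat embryo in uteri with no mouse embryos, with 2 arrays on day 9 and 2 on day 7. Mouse sites, with 2 arrays on each day, entered the fit only for its estimate of spread and are given where they help to read a value. Each array measured a whole implantation site, so embryo and uterus were not separated, and fewer cells of a type cannot be told apart from less RNA per cell. Whether arrays of 1 group represent different animals is not stated in the labels, so the p-values reflect only the scatter among these arrays and it may be technical.

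After implantation, the stromal cells of the mouse uterus turn into decidual cells, a tissue that surrounds the embryo, makes hormones of the prolactin family and steroid-processing enzymes, and is entered by new vessels and by uterine natural killer cells. The luminal epithelium, which first meets the embryo, is lost around it as the decidua grows. Interferons induce antiviral proteins, guanosine-triphosphate-binding proteins (GTPases) and antigen presentation genes, and in the decidua interferon gamma comes largely from natural killer cells.

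The arrays carry mouse probes, and a rat transcript may bind them poorly. Signals were scaled by the submitters to a trimmed mean of 500 on each array. Mean correlations across tested probe sets were 0.868 between co-transfer and rat-only sites on day 9 and 0.970 on day 7, and 0.927 between the days among co-transfer sites but 0.861 among rat-only sites. The middle and 5′ probe sets of the 18S ribosomal RNA control stood apart in rat-only sites on day 9. The middle one had 1339 and 1349 in co-transfer sites on day 9, against 6737 and 6209 in rat-only sites on day 9, and between 1422 and 1547 in co-transfer sites on day 7, against 1799 and 1826 in rat-only sites on day 7. The 5′ one had 846 and 853 in co-transfer sites on day 9, against 2202 and 2370 in rat-only sites on day 9. Of the 9 arrays, the 3′ one was also highest in rat-only sites on day 9, but by a smaller margin. It had 3684 and 4078 in co-transfer sites on day 9, against 5735 and 5485 in rat-only sites on day 9. On day 7 it had 5092, 4677 and 4966 in co-transfer sites, against 5214 and 5063 in rat-only sites. Markers of the mouse embryo did not all read alike in the sites labelled as rat. The embryonic globin Hbb-y had 9.4 and 7.8 in co-transfer sites on day 9, against 869 and 741 in rat-only sites on day 9, and the mouse sites of that day averaged 23180. Utf1, a gene of pluripotent cells named after its value was seen, had 167 and 70 in co-transfer sites on day 9. In rat-only sites on day 9 it had 382 and 326, and in mouse sites of day 9 264 and 528. Of 7 tested genes of the embryo proper list, 1 was called lower in the interaction, which was Utf1, and 0 higher. Sox2, another member named after its value was seen, did not pass the filter on dim probe sets and went the other way. It had 31.9 and 32.6 in co-transfer sites on day 9, against 14.1 and 10.5 in rat-only sites on day 9. Mouse sites of day 9 had 325.1 and 278.5 for Sox2. Runs were inferred from recorded hybridisation times, arrays close in time forming 1 run. Of the 9 arrays, the 4 of day 9 were in 1 run. The day 7 arrays of both groups were in other runs, 1 for rat-only sites and 2 for co-transfer sites. Co-transfer replicate 3 of day 7 also had another hybridisation date and another scanner than all other arrays. For the day 7 side of the interaction, run and group therefore cannot be told apart.

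Most co-transfer differences were found on day 9. Among 22138 tested probe sets, 7470 (33.7%) differed between co-transfer and rat-only sites on day 9, with 3474 higher (15.7%) and 3996 lower (18.1%) in co-transfer sites, against 214 (0.967%) on day 7, with 127 higher (0.574%) and 87 lower (0.393%) (limma, Benjamini-Hochberg adjusted p under 0.05). The interaction was called for 5780 probe sets (26.1%), 2742 of them higher (12.4%) and 3038 lower (13.7%), and its median over all tested probe sets was -0.081. Of the day 7 arrays, dropping co-transfer replicate 1, 2 or 3 left 83, 141 or 98 calls on day 7, and dropping rat-only replicate 1 or 2 left 34 or 35. Dropping either co-transfer array of day 9 left 142. A miss on day 7 does not show equality: 3175 probe sets had an unadjusted p under 0.05 there. A probe set was therefore counted as changed on day 9 only if it was called in the interaction and, in the same direction, on day 9, was not called on day 7, and had a day 7 difference under 0.5 in log2 units. This held for 4765 probe sets (21.5%), 2410 higher and 2355 lower in co-transfer sites. Another 71 were called on both days in opposite directions, 25 on both days in the same direction and 68 on day 7 and not day 9, and 851 had other patterns.

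**Figure D1:**
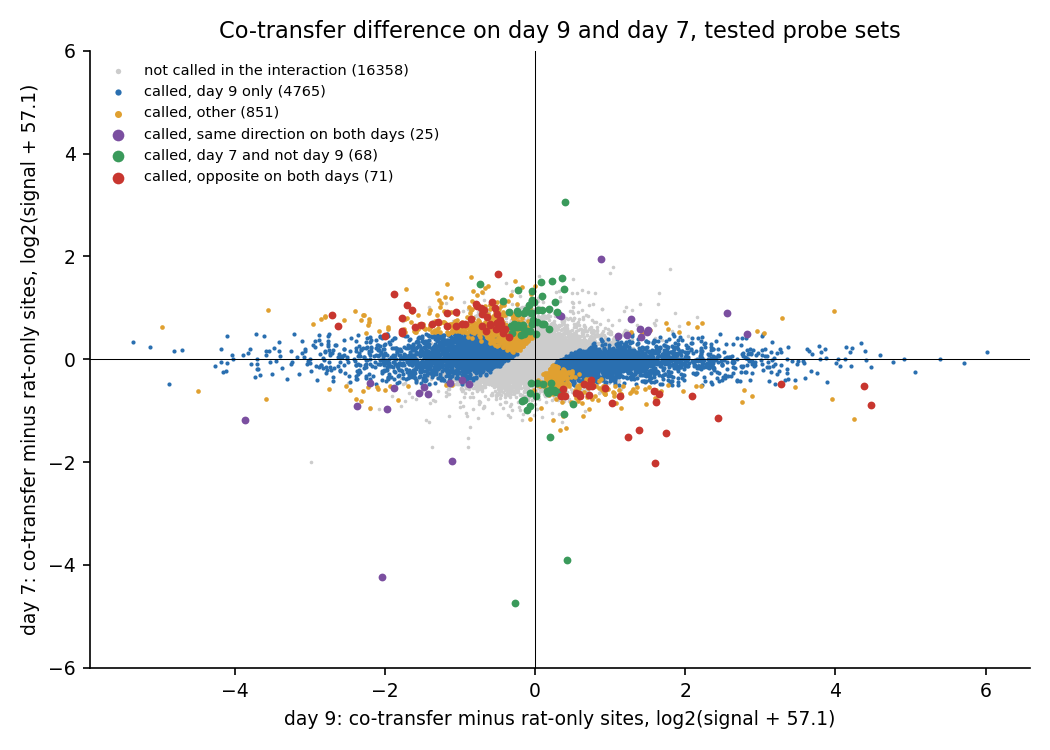
Each point is 1 of 22138 tested probe sets, with the day 9 difference between co-transfer and rat-only sites on the horizontal axis and the day 7 difference on the vertical axis, both in log2(signal + 57.1). The 4765 probe sets changed on day 9 only spread along the horizontal axis within 0.5 of the day 7 zero line, and the 71 with opposite differences lie in the upper left and lower right.

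Counted once per gene, through the tested probe set with the highest mean, the interaction was called for 3432 of 12003 genes (28.6%). Of these, 1784 (14.9% of genes) were higher and 1648 (13.7%) lower, and the median over all genes was -0.036. The genes changed on day 9 only numbered 2898 (24.1%), 1560 higher and 1338 lower. Of 938 genes on the array in 40 lists of functions and cell types, 791 had a tested probe set, and a gene that is bright in a single group could pass the filter on dim probe sets through that group alone. The rat-only arrays of day 9 stood apart more often than the co-transfer arrays of day 9. Among the 1560 genes that were higher in co-transfer sites on day 9 only, the 2 rat-only arrays of day 9 alone lay outside the range of the other 7 arrays for 704, the 2 co-transfer arrays of day 9 alone for 343 and both for 494. Among the 1338 lower genes the counts were 730, 236 and 351. Over all tested genes, 39.0% had the rat-only arrays of day 9 outside the range of the other 7, and 28.1% the co-transfer arrays of day 9.

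More decidual genes rose than fell. On day 9 the prolactin-family hormone Prl3c1, the tryptophan-degrading enzyme Tdo2 and the metallothionein gene Mt4 were high in co-transfer sites and low in rat-only sites, while on day 7 both kinds of site were high. Prl3c1 had signals of 6304 and 6339.5 in co-transfer sites on day 9, against 89.2 and 9 in rat-only sites on day 9, and 9869.5, 11116 and 11189.5 in co-transfer sites on day 7, against 9660.1 and 9862 in rat-only sites on day 7. Of the 9 arrays, those of rat-only sites of day 9 were low and the lowest of the other 7 was at 6304. The day 9 difference was 6.02 and the interaction 5.89 (SE 0.39, limma adjusted p = 5.02e-06). For Tdo2 the signals were 13398 and 13698 in co-transfer sites on day 9, against 392 and 494 in rat-only sites on day 9, and 14994, 15344 and 14766 in co-transfer sites on day 7, against 15885 and 15116 in rat-only sites on day 7. Its interaction was 4.82 (SE 0.14, limma adjusted p = 7.44e-08), and its day 7 difference was -0.044. All 3 tested probe sets of Tdo2 were called, with interactions between 4.51 and 5.78. Mt4 had 6996 and 7008 in co-transfer sites on day 9, against 585 and 489 in rat-only sites on day 9, and its interaction was 3.65 (SE 0.16, limma adjusted p = 6.29e-07).

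Of 24 tested genes of the decidual stroma list, 14 were called higher in the interaction and 5 lower, where 14.9% and 13.7% of all genes were, and the median was 1.11 beside -0.036 over all genes. All 19 were also changed on day 9 only, as were 2898 of all 3432 genes called in the interaction. The median difference of the list was 1.19 on day 9 and 0.040 on day 7. In 15 of the 24 genes the rat-only arrays of day 9 lay below the other 7 arrays. Among all genes, 39.0% had them above or below the other 7. The largest fall in the list was Inhbb, the beta B subunit of activin B, named here after its value was seen. Its signals were 923 and 916 in co-transfer sites on day 9, against 9698 and 8772 in rat-only sites on day 9, and 1013, 1034 and 1114 in co-transfer sites on day 7, against 895 and 971 in rat-only sites on day 7. Of the 9 arrays, those of rat-only sites of day 9 were the high ones, but mouse sites of day 7 averaged 8425. The interaction was -3.42 (SE 0.16, limma adjusted p = 8.05e-07). The summed signal of the decidual list was 171418 and 175602.5 in co-transfer sites on day 9, against 98679.5 and 95858.7 in rat-only sites on day 9, and on day 7 all 5 arrays lay between 168518 and 176263.

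**Figure D2:**
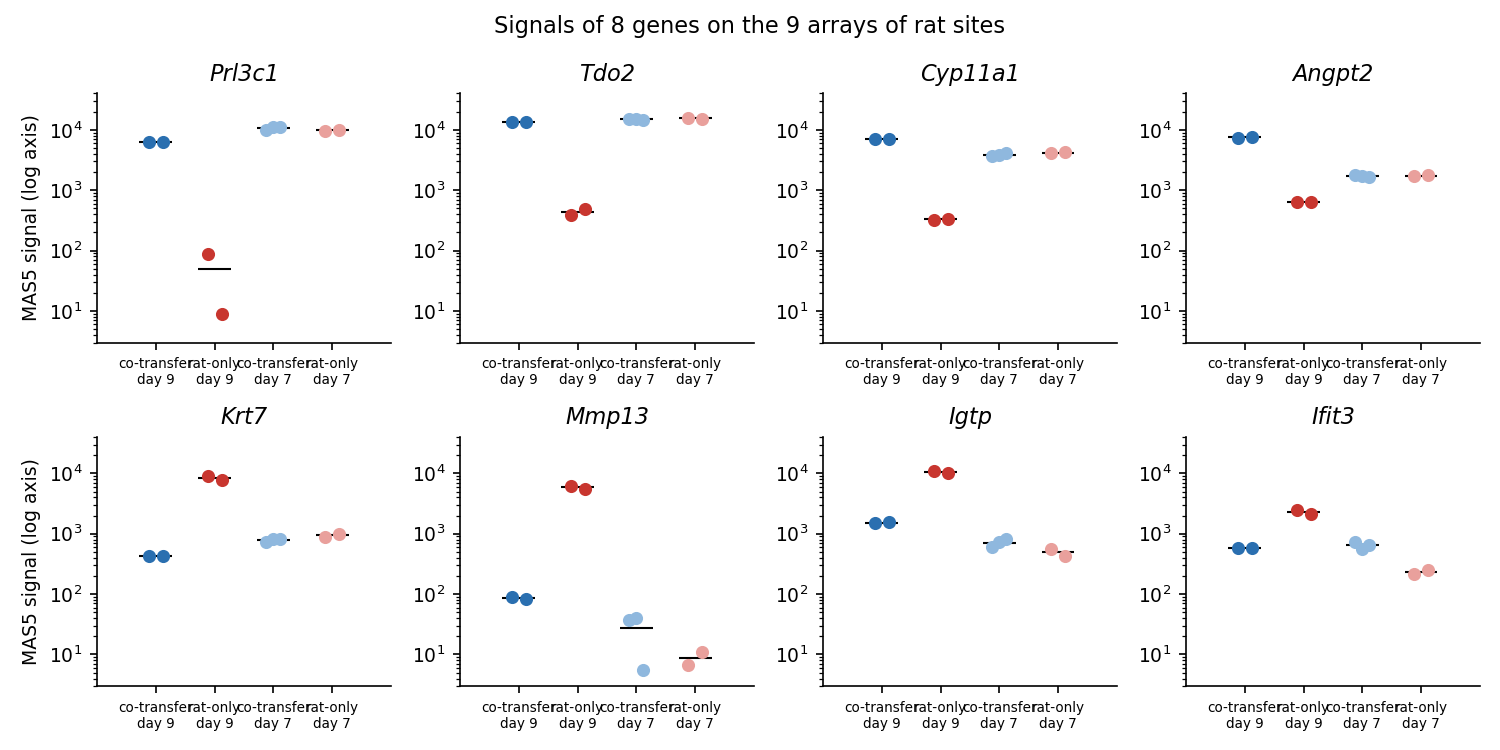
Signals of 8 genes on a log axis, with a point for each array of a group and a line at the group mean, for co-transfer and rat-only sites on day 9 and then on day 7. For Prl3c1, Tdo2, Cyp11a1 and Angpt2 the rat-only arrays of day 9 sit below all other arrays, and for Krt7, Mmp13, Igtp and Ifit3 they sit above all other arrays.

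Steroid-processing and steroid-responsive genes also changed. Cyp11a1, the enzyme that makes pregnenolone from cholesterol, had 7013 and 7092 in co-transfer sites on day 9, against 319.6 and 339.7 in rat-only sites on day 9, and 3667, 3763 and 4109 in co-transfer sites on day 7, against 4167 and 4239 in rat-only sites on day 7. Co-transfer sites of day 9 were the highest of the 4 groups and rat-only sites of day 9 the lowest, and the interaction was 4.33 (SE 0.13, limma adjusted p = 7.44e-08). Akr1c18, which inactivates progesterone, was low in both groups on day 7, with 164, 76.9 and 56.3 in co-transfer sites against 69.8 and 130 in rat-only sites. On day 9 it had 4293 and 4271 in co-transfer sites, against 617 and 669 in rat-only sites, and its interaction was 2.67 (SE 0.40, limma adjusted p = 0.000945). Of 14 tested genes of steroid synthesis and breakdown, 7 were called higher and 3 lower, beside 14.9% and 13.7% of all genes. Their median was 0.67. Among the lower was Hsd17b2, which oxidises estradiol to estrone, with 16.7 and 24.8 in co-transfer sites on day 9, against 243 and 272 in rat-only sites on day 9. Of 19 tested progesterone and glucocorticoid targets, 7 were called higher and 4 lower, with a median of 0.48. The largest were the glucocorticoid-induced leucine zipper gene Tsc22d3, with an interaction of 3.03 (SE 0.13, limma adjusted p = 5.97e-07), the receptor co-chaperone Fkbp5 with 2.27, and the transcription factor Zbtb16 with 2.23. Tsc22d3 had 5489.5 and 5568 in co-transfer sites on day 9, against 693 and 676 in rat-only sites on day 9, and 4016, 3744 and 3775 in co-transfer sites on day 7, against 4033 and 4343 in rat-only sites on day 7.

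More vessel genes rose than fell. Of 38 tested genes of endothelium and angiogenesis, 18 were called higher in the interaction and 6 lower, beside 14.9% and 13.7% of all genes. The share called lower was thus near that of all genes. Their median was 0.53, and the median difference was 0.17 on day 9 and -0.24 on day 7. Angpt2, a vessel-remodelling ligand of the Tie2 receptor, had 7303 and 7681 in co-transfer sites on day 9, against 649 and 650 in rat-only sites on day 9, and 1759.9, 1698 and 1652 in co-transfer sites on day 7, against 1708 and 1759 in rat-only sites on day 7. It was thus highest in the co-transfer arrays and lowest in the rat-only arrays of day 9, and its interaction was 3.44 (SE 0.19, limma adjusted p = 1.6e-06). Angpt4, another Tie2 ligand, had an interaction of 5.40 (SE 0.49, limma adjusted p = 3.83e-05), but it was lower in co-transfer sites on day 7, with 364, 749 and 789.7 against 1575 and 1260.4 in rat-only sites, so it did not count among the genes changed on day 9 only. Edn1, the vasoconstrictor endothelin 1, fell. It had 145 and 170.3 in co-transfer sites on day 9, against 1119 and 1204 in rat-only sites on day 9, and its interaction was -2.52 (SE 0.23, limma adjusted p = 4.37e-05).

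Of 14 tested genes of coagulation and fibrinolysis, 7 were called higher and 3 lower, beside 14.9% and 13.7% of all genes. Their median was 0.38. Procr, the endothelial receptor of protein C, had 15028 and 14360.4 in co-transfer sites on day 9, against 1586 and 1474 in rat-only sites on day 9, and 829, 910 and 945 in co-transfer sites on day 7, against 1221 and 990 in rat-only sites on day 7. Of the 9 arrays, those of co-transfer sites of day 9 were high, and mouse sites of day 9 were higher still, with a mean of 19643. The interaction was 3.50 (SE 0.22, limma adjusted p = 4.2e-06). The tissue factor pathway inhibitor Tfpi rose with an interaction of 2.91 (SE 0.16, limma adjusted p = 1.76e-06), and coagulation factor F5 fell with -2.04 (SE 0.33, limma adjusted p = 0.00153).

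Most natural killer genes were higher in the interaction, and some of them differed in opposite directions on the 2 days. Of 17 tested genes, 11 were called higher in the interaction and 0 lower, beside 14.9% and 13.7% of all genes. Their median was 1.08, and the median difference was 0.66 on day 9 and -0.18 on day 7. Only 5 of the 11 met the rule for day 9 only. The others include 4 granzyme genes called on both days, named here because their number is small and after their values were seen: Gzma, Gzmd, Gzmf and Gzmg, which code for serine proteases of cytotoxic granules. Granzyme genes include close copies of each other, so the share of each in a signal is uncertain. Gzmg had 11739 and 10650.1 in co-transfer sites on day 9, against 7530.1 and 7274 in rat-only sites on day 9, and 1418, 1577 and 1536 in co-transfer sites on day 7, against 2439.9 and 2559.8 in rat-only sites on day 7. Its difference was 0.59 on day 9 and -0.71 on day 7, and the groups overlapped on neither day. Gzmb had 4083 and 4133 in co-transfer sites on day 9, against 2385 and 1866 in rat-only sites on day 9, and an interaction of 1.48 (SE 0.19, limma adjusted p = 0.000395). The pore-forming protein Prf1, with 1129 and 1080.4 in co-transfer sites on day 9 against 389.7 and 566 in rat-only sites on day 9, and 288, 274 and 259.7 in co-transfer sites on day 7 against 343 and 296 in rat-only sites on day 7, was changed on day 9 only. Its interaction was 1.32 (SE 0.19, limma adjusted p = 0.000882). The summed signal of the natural killer list was 70015 and 69834 in co-transfer sites on day 9, against 44433 and 43684 in rat-only sites on day 9. On day 7 it was 19513, 19641 and 20051 in co-transfer sites, against 27148 and 27587 in rat-only sites.

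**Figure D3:**
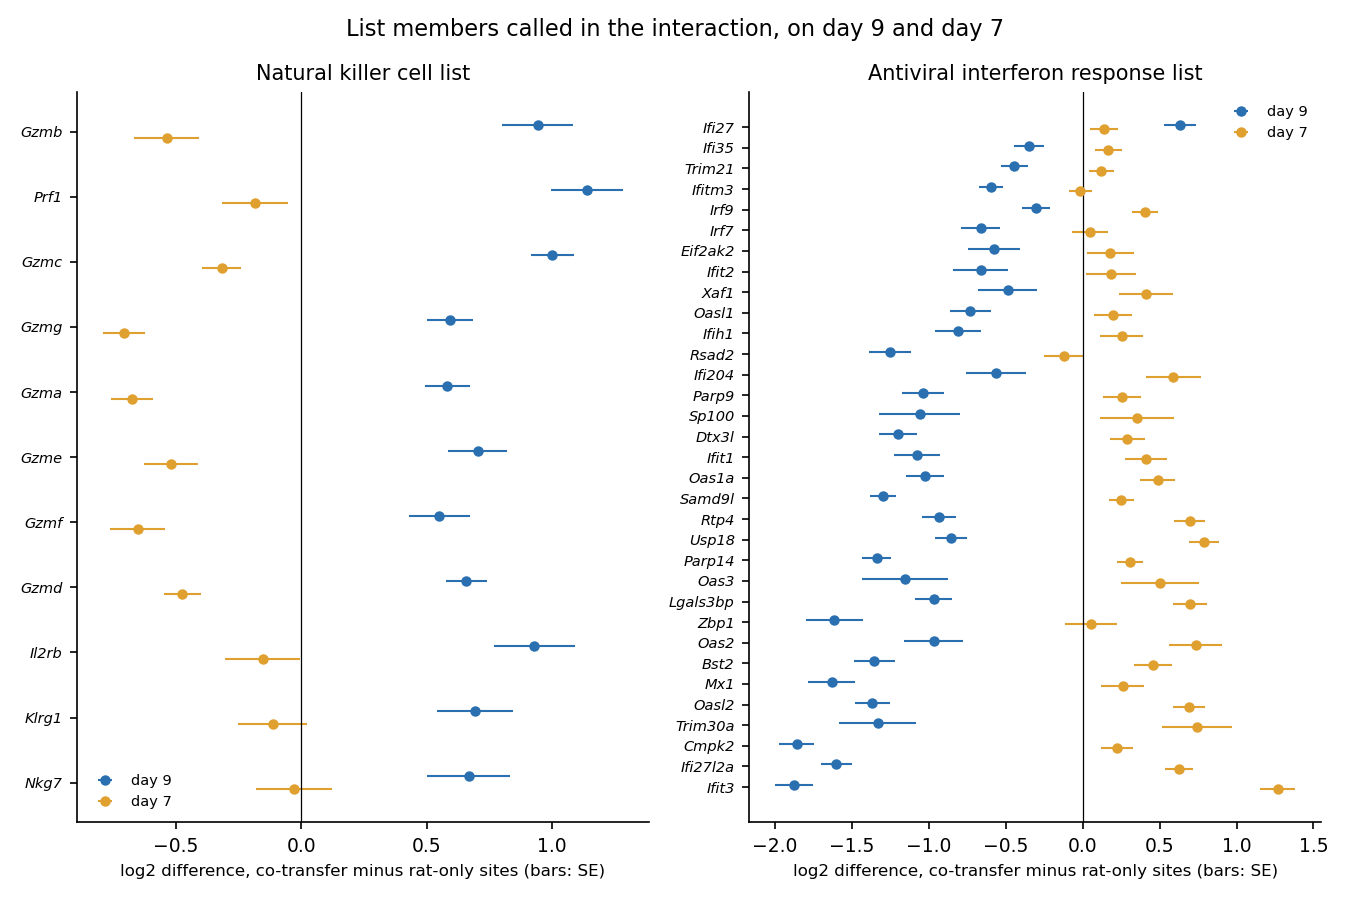
Day 9 and day 7 differences between co-transfer and rat-only sites, in log2 with standard error bars, for the members of the natural killer list (left) and of the antiviral interferon list (right) that were called in the interaction. Every natural killer gene shown is above 0 on day 9 and below 0 on day 7, and Ifit3 is the interferon gene with the largest interaction in size, at -3.14.

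Most interferon-induced genes were lower in co-transfer sites on day 9. Promoters of 4 are printed here because the members moved together and many such genes are known to carry the interferon-stimulated response element. The letters searched were its core, GAAA followed by any 2 bases and GAAA again, on both strands, in RefSeq windows of 300 bases of build GRCm38.p6. The 4 shown were chosen after their values were seen, as a pair of falling genes from each interferon list with the letters in the stretch printed. The choice did not cover every gene of the lists. Iigp1, at -3.57, fell further than Igtp, at -3.25, and was left out. Each stretch is the 250 bases before the start of transcription, 5′ to 3′ on the gene's strand, with the match in capitals (reading TTTC where it lies on the other strand).
Ifit3 (chr19:34583279-34583528, plus strand): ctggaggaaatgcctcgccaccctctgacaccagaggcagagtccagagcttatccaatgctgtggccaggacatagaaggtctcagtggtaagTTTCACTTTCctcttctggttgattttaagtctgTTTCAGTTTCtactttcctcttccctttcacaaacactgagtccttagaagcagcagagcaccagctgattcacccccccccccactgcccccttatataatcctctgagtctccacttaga
Trim30a (chr7:104465194-104465443, minus strand): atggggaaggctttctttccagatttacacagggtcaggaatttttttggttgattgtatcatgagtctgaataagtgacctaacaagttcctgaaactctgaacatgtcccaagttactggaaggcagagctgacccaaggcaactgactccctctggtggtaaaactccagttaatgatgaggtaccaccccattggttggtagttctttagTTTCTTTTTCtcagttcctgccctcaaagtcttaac
Igtp (chr11:58199306-58199555, plus strand): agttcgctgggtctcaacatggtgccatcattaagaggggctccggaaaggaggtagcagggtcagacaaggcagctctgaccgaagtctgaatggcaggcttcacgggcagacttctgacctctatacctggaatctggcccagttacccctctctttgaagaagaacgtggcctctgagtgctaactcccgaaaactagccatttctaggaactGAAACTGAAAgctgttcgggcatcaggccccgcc
Gbp2 (chr3:142620413-142620662, plus strand): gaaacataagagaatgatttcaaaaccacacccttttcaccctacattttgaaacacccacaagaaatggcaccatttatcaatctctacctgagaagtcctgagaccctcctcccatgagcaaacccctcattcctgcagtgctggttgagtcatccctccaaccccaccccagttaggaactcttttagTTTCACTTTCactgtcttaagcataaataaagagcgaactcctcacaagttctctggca
The letters occurred in the promoters of 13 of 26 matched genes of the antiviral list and 8 of 17 of the interferon gamma list (47.1%), of 38 and 21 tested. Among all 27025 genes with a promoter in the table, 1079 (3.99%) had them, as had 3 of 11 matched genes of class I presentation (27.3%), 2 of 9 complement genes (22.2%) and 2 of 12 natural killer genes (16.7%). The decidual list had 1 of 18 (5.56%) and the epithelial list 1 of 31 (3.23%). A match is a description of sequence and not a measured binding site.

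The antiviral list holds genes whose products block steps of viral replication or sense viral RNA. Of 38 tested, 32 were called lower in the interaction and 1 higher, beside 13.7% and 14.9% of all genes. The median of the list was -1.35. The 1 higher call was lost without rat-only replicate 2 of day 7, either rat-only replicate of day 9 or co-transfer replicate 2 of day 9. The median difference of the list was -0.95 on day 9 and 0.28 on day 7. The rule for day 9 only was met by 21 of the 32, while 6 genes were called lower on day 9 and higher on day 7. In 36 of 38 genes the rat-only arrays of day 9 lay above the other 7, where 39.0% of all genes had them above or below. Ifit3, which acts with partner proteins that bind viral RNA, had 583 and 573 in co-transfer sites on day 9, against 2432 and 2118 in rat-only sites on day 9, and 735, 565 and 641 in co-transfer sites on day 7, against 219 and 249.5 in rat-only sites on day 7. Rat-only sites were the higher group on day 9 and the lower group on day 7, with no overlap on either day. The differences were -1.87 on day 9 and 1.27 on day 7, and the interaction was -3.14 (SE 0.17, limma adjusted p = 1.36e-06). Ifi27l2a, an interferon-inducible mitochondrial protein gene, likewise had differences of -1.60 on day 9 and 0.63 on day 7. Cmpk2, a nucleotide kinase, was changed on day 9 only, with 447 and 448 in co-transfer sites on day 9, against 1724 and 1817 in rat-only sites on day 9, and an interaction of -2.08 (SE 0.15, limma adjusted p = 1.02e-05).

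Most genes of interferon gamma GTPases and targets fell too. Of 21 tested, 15 were called lower and 1 higher, beside 13.7% and 14.9% of all genes. Their median was -2.04, and the median difference was -1.76 on day 9 and 0.21 on day 7. Igtp, an immunity-related GTPase that acts against parasites inside vacuoles, had 1506 and 1545 in co-transfer sites on day 9, against 10915 and 10245 in rat-only sites on day 9, and 607, 726 and 808 in co-transfer sites on day 7, against 551 and 428 in rat-only sites on day 7. All 7 other arrays were below the rat-only arrays of day 9, and the interaction was -3.25 (SE 0.22, limma adjusted p = 5.6e-06). The related GTPase Iigp1 had 2108 and 2091 in co-transfer sites on day 9, against 13955 and 13969 in rat-only sites on day 9, and 1606, 2025 and 1889 in co-transfer sites on day 7, against 1035 and 928 in rat-only sites on day 7. Its interaction was -3.57 (SE 0.21, limma adjusted p = 2.26e-06), with a day 7 difference of 0.87 in the other direction. The guanylate-binding protein gene Gbp6 had an interaction of -3.27 (SE 0.56, limma adjusted p = 0.00225). The medians of the natural killer list and of both interferon lists thus had opposite signs in the same arrays. The interferon gamma gene Ifng, a member of the natural killer list that was too dim to be tested, had 18.1 and 24 in co-transfer sites on day 9, against 212.7 and 231.7 in rat-only sites on day 9, and 50.1, 42.5 and 4.1 in co-transfer sites on day 7, against 69.1 and 12.5 in rat-only sites on day 7. It was thus highest in the rat-only arrays of day 9, where the summed natural killer signal was lower than in co-transfer sites.

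Most antigen presentation genes had negative interactions. Of 14 tested genes of class I presentation, 11 were called lower and 0 higher, beside 13.7% and 14.9% of all genes. All 11 were changed on day 9 only, and the median of the list was -1.02. Nlrc5, the transactivator of class I genes, had 398 and 363 in co-transfer sites on day 9, against 1168 and 1269 in rat-only sites on day 9, and an interaction of -1.82 (SE 0.19, limma adjusted p = 8.76e-05). The immunoproteasome subunit genes Psmb8 and Psmb9 had interactions of -1.67 and -1.55. Of 9 tested class II genes, 5 were called lower and 1 higher, among them the invariant chain gene Cd74 with 1346 and 1315 in co-transfer sites on day 9, against 5209 and 4918 in rat-only sites on day 9. Its interaction was -1.93 (SE 0.14, limma adjusted p = 8.58e-06). On day 7 Cd74 averaged 876 in co-transfer sites and 846 in rat-only sites, so its signal was higher on day 9 in both. Without probe sets whose names mark shared sequence, 3 class II genes were called lower. The class I heavy chain gene H2-D1 had an interaction of -1.07 (SE 0.14, limma adjusted p = 0.000406) through its brightest probe set, but its 8 tested probe sets disagreed. Among them 4 were called lower, 3 higher and 1 not at all, and the 3 higher ones had day 7 differences between -4.74 and -3.90, with rat-only sites of day 7 as the high group. H2 genes share sequence, so the value of a single probe set is uncertain.

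Most epithelial genes fell. Of 41 tested genes of uterine epithelium and glands, 31 were called lower and 3 higher, beside 13.7% and 14.9% of all genes. Their median was -2.02, and the median difference was -1.86 on day 9 and 0.041 on day 7. The rule for day 9 only was met by 28 of the 31. The cell-surface mucin Muc1 had 29.9 and 29.7 in co-transfer sites on day 9, against 2782 and 2254 in rat-only sites on day 9, and 113, 75.7 and 80.3 in co-transfer sites on day 7, against 65.8 and 276 in rat-only sites on day 7. No array outside the rat-only sites of day 9 exceeded 276, and the interaction was -4.41 (SE 0.53, limma adjusted p = 0.000244). The keratin gene Krt7 had 432 and 425 in co-transfer sites on day 9, against 8891 and 7831 in rat-only sites on day 9, and 723, 829 and 815 in co-transfer sites on day 7, against 869.5 and 1007 in rat-only sites on day 7, and its interaction was -3.88 (SE 0.15, limma adjusted p = 3.97e-07). Krt20, another keratin gene, and Clca1, a secreted regulator of chloride channels, were dim in all other groups and had interactions of -4.14 and -4.04. The summed epithelial signal was 65317 and 67799 in co-transfer sites on day 9, against 220413 and 215242.5 in rat-only sites on day 9. On day 7 the sums lay between 92692 and 95202 in co-transfer sites, against 99096 and 96061 in rat-only sites. Other transport genes with low interactions were Calb1, a calcium buffer, at -4.38, and Cftr, the chloride channel, at -3.99. Calb1 had 111 and 123 in co-transfer sites on day 9, against 3105 and 3086 in rat-only sites on day 9. The part of the epithelial signal, or of the 18S control, in the changes of other lists was not tested.

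**Figure D4:**
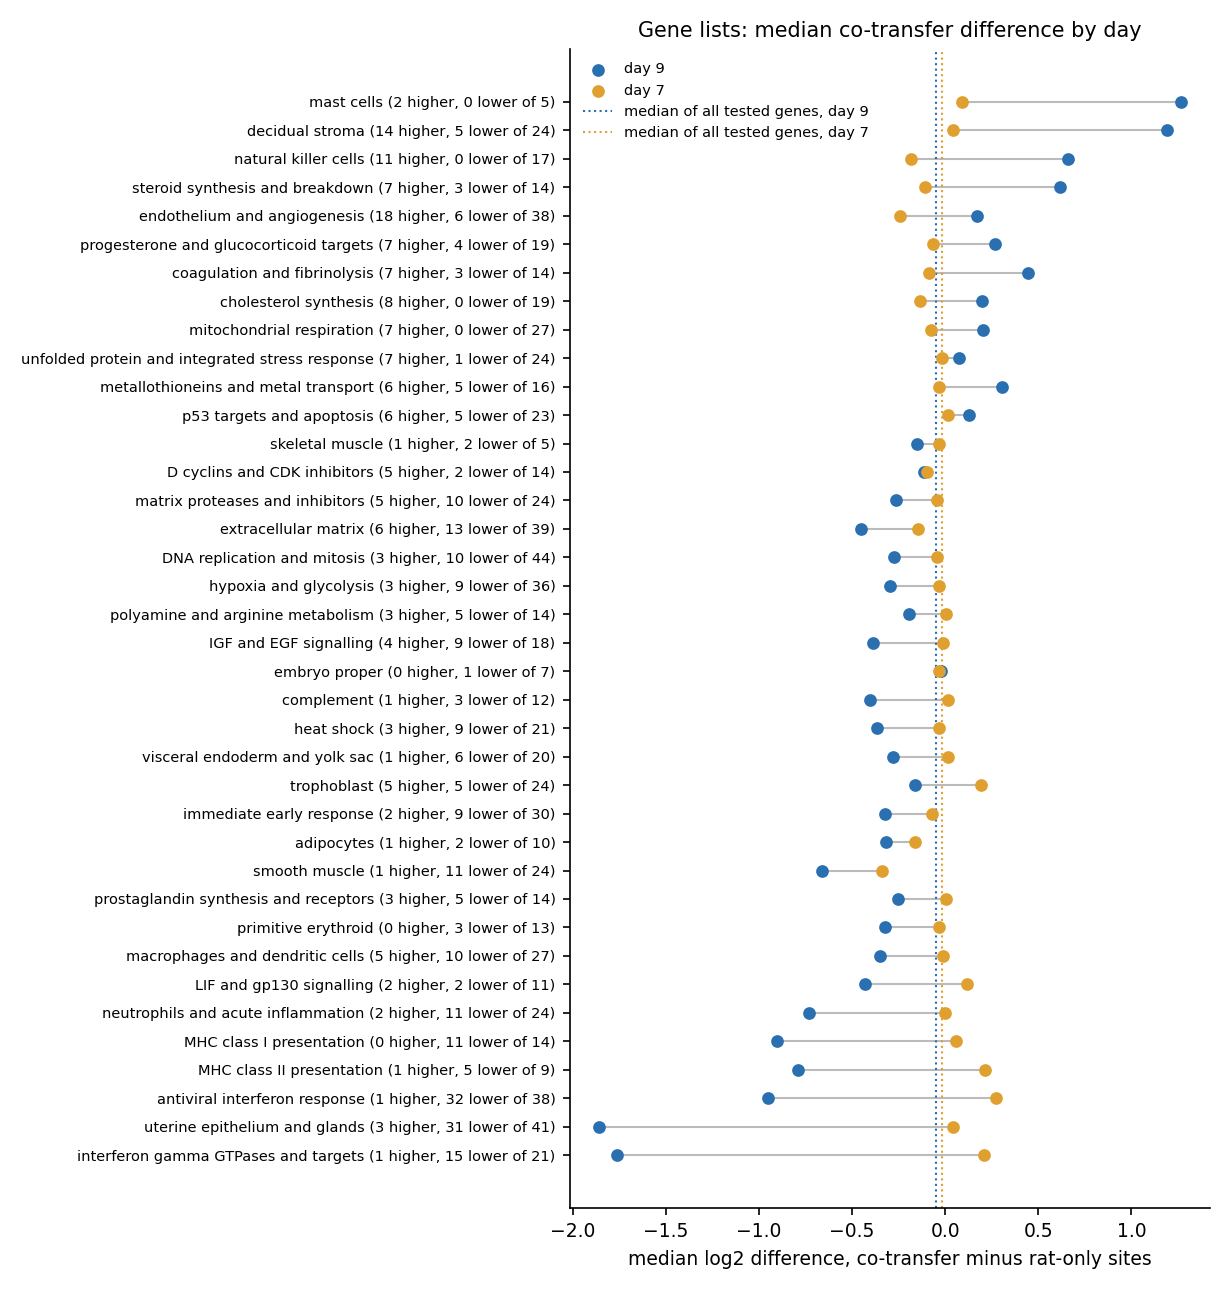
Median log2 difference between co-transfer and rat-only sites on day 9 and day 7 for each list with at least 5 tested genes, ordered by the median interaction, with counts of genes called higher and lower in the interaction. Dotted lines mark the medians over all tested genes, at -0.047 on day 9 and -0.016 on day 7. Day 7 medians lie between -0.34 and 0.28, and day 9 medians run from -1.86 for uterine epithelium to 1.27 for mast cells, a list with 5 tested genes.

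The lowest interaction among called genes belonged to a matrix-degrading enzyme. Mmp13, a collagenase, had 90.9 and 82.9 in co-transfer sites on day 9, against 6103 and 5572 in rat-only sites on day 9, and 37.4, 39.6 and 5.5 in co-transfer sites on day 7, against 6.7 and 11 in rat-only sites on day 7. Of the 9 arrays, those of rat-only sites of day 9 were bright, while mouse sites averaged 891 on day 7 and 41.5 on day 9. The interaction was -5.69 (SE 0.25, limma adjusted p = 5.97e-07). The stromelysins Mmp3 and Mmp10 had interactions of -3.91 and -4.13. Mmp3 had 206 and 235 in co-transfer sites on day 9, against 4988 and 4749 in rat-only sites on day 9. The list as a whole was mixed, with 10 of 24 tested genes called lower and 5 higher, beside 13.7% and 14.9% of all genes. Its median was -0.13. Of 39 tested extracellular matrix genes, 13 were called lower and 6 higher, with a median of -0.17. The share called higher was near that of all genes. Tnc, the matrix glycoprotein tenascin C, had 552 and 488 in co-transfer sites on day 9, against 6109.8 and 5991 in rat-only sites on day 9, and an interaction of -3.75 (SE 0.22, limma adjusted p = 2.39e-06). The laminin chain gene Lamc1 ran the other way, at 1.86.

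More inflammatory genes fell than rose. Of 24 tested genes of neutrophils and acute inflammation, 11 were called lower and 2 higher, beside 13.7% and 14.9% of all genes. Their median was -0.83. Cxcl2, a neutrophil-attracting chemokine, had 119 and 125 in co-transfer sites on day 9, against 1655 and 1549 in rat-only sites on day 9, and an interaction of -3.70 (SE 0.32, limma adjusted p = 2.76e-05). S100a9, a subunit of calprotectin, had 135 and 239 in co-transfer sites on day 9, against 2455 and 2380.4 in rat-only sites on day 9, and an interaction of -3.21 (SE 0.28, limma adjusted p = 3.07e-05). Its partner subunit S100a8 was 1 of the 2 that rose and is named for that, after its value was seen. S100a8 had 17849 and 16991 in co-transfer sites on day 9, against 3312 and 3245 in rat-only sites on day 9, and 675, 819.9 and 779 in co-transfer sites on day 7, against 843 and 879.8 in rat-only sites on day 7. The other was the interleukin 1 decoy receptor Il1r2, at 3.61, with 4273 and 4185 in co-transfer sites on day 9 against 445 and 296 in rat-only sites on day 9. Ptgs2, the inducible cyclooxygenase, had 416 and 310.2 in co-transfer sites on day 9, against 3010.2 and 2992 in rat-only sites on day 9, and its interaction was -3.34 (SE 0.29, limma adjusted p = 3.35e-05). Of 27 tested macrophage and dendritic cell genes, 10 were called lower and 5 higher, and the 5 became 3 without rat-only replicate 1 of day 7, rat-only replicate 1 of day 9 or co-transfer replicate 2 of day 9. The lipopolysaccharide co-receptor Cd14 was at -2.02 and the receptor of macrophage colony-stimulating factor, Csf1r, at 1.51.

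Some contractile genes fell. Of 24 tested smooth muscle genes, with a median of -0.40, 11 were called lower and 1 higher, beside 13.7% and 14.9% of all genes. The count fell to 6 in the fits without rat-only replicate 1 of day 7, rat-only replicate 1 of day 9 or either co-transfer replicate of day 9. The oxytocin receptor gene Oxtr changed most, with 409 and 232 in co-transfer sites on day 9, against 4583 and 4854 in rat-only sites on day 9, and 340.1, 369.6 and 277 in co-transfer sites on day 7, against 387 and 275 in rat-only sites on day 7. Its interaction was -3.70 (SE 0.29, limma adjusted p = 1.65e-05). The summed smooth muscle signal was 88953 and 92529 in co-transfer sites on day 9, against 150267.5 and 149498 in rat-only sites on day 9. On day 7 it was 104877, 106478.5 and 108481.5 in co-transfer sites, against 123607 and 125410 in rat-only sites. Co-transfer sites were thus lower without overlap on both days, and the median difference of the list was -0.66 on day 9 and -0.34 on day 7.

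Trophoblast genes showed no common direction. Of 24 tested trophoblast genes, 5 were called higher and 5 lower, with a median of -0.35, and probe sets here read mouse sequence. The 5 lower became 1 when the filter asked for 4 bright arrays, and without probe sets whose names mark shared sequence 2 were called higher and 3 lower. Prl8a9, a prolactin-family gene, had 2117 and 1942 in co-transfer sites on day 9, against 208 and 227 in rat-only sites on day 9, and 2019, 1889 and 1859.8 in co-transfer sites on day 7, against 1947 and 2234 in rat-only sites on day 7, and its interaction was 3.04 (SE 0.19, limma adjusted p = 3.52e-06). Mouse sites of day 9 averaged 1350. Tpbpb, a trophoblast-specific protein gene, had 192 and 211 in co-transfer sites on day 9, against 15.7 and 25.3 in rat-only sites on day 9. On day 7 it had 31.7, 90.5 and 25.6 in co-transfer sites, against 236 and 205 in rat-only sites, and the interaction was 3.17 (SE 0.37, limma adjusted p = 0.000193). Mouse sites of day 9 averaged 304. Prl4a1, a product of trophoblast giant cells, had 40.9 and 27.6 in co-transfer sites on day 9, against 268 and 304 in rat-only sites on day 9, and mouse sites of day 9 averaged 15912. Of 20 tested visceral endoderm and yolk sac genes, 1 was called higher and 6 lower, and of 13 erythroid genes 0 higher and 3 lower. Over all genes 28.6% were called, 14.9% higher and 13.7% lower, so the erythroid list was not called more often than all genes. Hbb-y had the largest erythroid interaction in size, at -3.52 (SE 0.20, limma adjusted p = 2e-06). The 6 became 3 when the filter asked for 4 bright arrays, and the 3 erythroid calls became 1 without probe sets that share sequence. The 1 higher yolk sac call was lost in 7 of the 9 fits that left out an array of a rat site and became 2 without rat-only replicate 2 of day 9, and 1 erythroid gene was called higher without co-transfer replicate 3 of day 7 or rat-only replicate 1 of day 9.

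Stress and energy lists differed in direction. Beside 28.6% of all genes called, 14.9% higher and 13.7% lower, of 21 tested heat shock genes, 9 were called lower and 3 higher, and the count of 9 fell to 5 without rat-only replicate 1 of day 7 or co-transfer replicate 2 of day 9. The inducible chaperone gene Hspa1a had 662 and 675 in co-transfer sites on day 9, against 5854 and 5069 in rat-only sites on day 9, and an interaction of -2.79 (SE 0.18, limma adjusted p = 4.52e-06). The co-chaperone gene Bag3 rose, at 1.61. Of 27 tested genes of mitochondrial respiration, 7 were called higher and 0 lower, with a median of 0.25, so that the share called in either direction was near that of all genes. The largest was the succinate dehydrogenase subunit gene Sdhb at 1.00. Of 36 tested genes of hypoxia and glycolysis, 9 were called lower and 3 higher, and the 9 became 4 without either rat-only replicate of day 7 or co-transfer replicate 1 of day 9, and 5 without rat-only replicate 2 of day 9. Of 24 tested genes of the unfolded protein and integrated stress response, 7 were called higher and 1 lower, and the 7 became 4 without rat-only replicate 2 of day 7 or co-transfer replicate 2 of day 9. Of 30 tested immediate early genes, 9 were called lower and 2 higher, among them Ier3 at -1.92 and the transcription factor gene Egr1 at -1.91. Of 18 tested genes of insulin-like growth factor and epidermal growth factor signalling, 9 were called lower and 4 higher. The ligand genes Nrg1 and Ereg were at -2.52 and -2.50, and Igfbp2, an insulin-like growth factor binding protein, was at -2.27.

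Outside the lists, the highest interactions belonged to genes of diverse function. Psca, a membrane-anchored cell-surface antigen, had 2581 and 2637 in co-transfer sites on day 9, against 78.6 and 48.6 in rat-only sites on day 9, and 75.8, 68.1 and 102 in co-transfer sites on day 7, against 208 and 193 in rat-only sites on day 7. Of the 9 arrays, those of co-transfer sites of day 9 were bright, and mouse sites of day 9 averaged 3143. Its interaction was 5.38 (SE 0.19, limma adjusted p = 2.1e-07). Prkg2, a cGMP-dependent protein kinase, had 6631 and 6292 in co-transfer sites on day 9, against 264 and 236 in rat-only sites on day 9, and 6557, 7522 and 6300.1 in co-transfer sites on day 7, against 6860.2 and 6819 in rat-only sites on day 7. Its interaction was 4.42 (SE 0.14, limma adjusted p = 1.01e-07). Others among the highest were the receptor gene Mrgprg at 5.31, the ferroxidase-like gene Hephl1 at 4.91, the microtubule-associated gene Map7d2 at 4.72, the secretoglobin gene Scgb1a1 at 4.63, the betaine transporter gene Slc6a12 at 4.19 and the dystrobrevin gene Dtna at 4.12. Among the lowest were the flippase gene Atp10b at -3.98, the transporter gene Mfsd4a at -3.96 and the phosphodiesterase-domain gene Gdpd3 at -3.87.

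Few genes had their co-transfer difference on day 7. Among 32 genes called on day 7 and in the interaction but not on day 9, the largest was Tmem14c, a mitochondrial membrane protein needed for heme synthesis. It had 882 and 902 in co-transfer sites on day 9, against 686.4 and 642 in rat-only sites on day 9, and 1452, 1566 and 1479 in co-transfer sites on day 7, against 140 and 119 in rat-only sites on day 7. Rat-only sites of day 7 were the group apart, and the interaction was -2.66 (SE 0.20, limma adjusted p = 1.08e-05). The next were Tmem52 at -1.57, Fam71d at -1.38 and Ccdc85b at 1.37, and the call of Fam71d was lost without co-transfer replicate 2 of day 9, where its interaction was -1.22. The groups behind these day 7 values were in different runs, so run and group cannot be told apart.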

How the data were processed

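RNA of whole implantation sites was measured on 13 Affymetrix Mouse430_2 arrays. The authors deposited a linear MAS5 intensity for all 45101 probe sets of every array, the tool being named in the submitters' processing notes without a version. No detection calls were used here. Each array had a mean of 500 once 2 percent of values at either end were trimmed. The deposited experiment files record instrument settings. Runs were inferred from their hybridisation times, a gap over 30 minutes starting a new run, which gave 4 runs.

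Gene symbols came from the platform annotation, in which 34958 probe sets had 1 symbol, 932 had several and were not used for naming, and 9211 had none. Looking them up by Entrez number changed 0 symbols. Values were analysed as log2(signal + 57.1). The added 57.1 is the 25th percentile over all arrays, so that changes of dim probe sets are understated. The 64 control probe sets were left out, and tests were limited to the 22138 probe sets that exceeded the 60th percentile on 2 or more arrays. With limma 3.58.1 under R 4.3.3, a mean per group was fitted over the 13 arrays (lmFit and eBayes, 7 residual and 2.71 prior degrees of freedom). The 3 comparisons were the interaction and its day 9 and day 7 differences. Benjamini-Hochberg adjustment ran over all tested probe sets within each comparison, and a call is an adjusted p under 0.05. The number of arrays limits the precision.

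The comparison, the 40 gene lists and the naming rule were chosen with earlier results of these data known. A gene with several tested probe sets entered through the brightest by mean log2 signal. Named genes are the 12 highest and 12 lowest interactions among called genes, up to 3 called members of each list by size, the 4 largest called on day 7 and not day 9, the 4 largest called in opposite directions, and Tmem14c and H2-D1. Genes named outside this rule are marked as chosen after their values were seen. Promoters were taken from RefSeq, build GRCm38.p6. No coordinates are given for probe sets, since the files name no build.

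The fit was tested on simulated data over 22138 probe sets: it recovered 33 of 100 interactions of size 1 and 82 of 100 of size 2 in log2 units, with 5 false calls. No other probe sets were given an interaction, while 26.1% were called in the data. The Benjamini-Hochberg adjustment was therefore stricter in the simulation, and these counts do not give the recovery in the data. Alternatives covered the pseudocount, the filter, quantile normalization, the arrays in the fit, blocks for date and replicate number, array weights, shared-sequence probe sets, the variance prior and leaving out each array.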

Additional observations from a re-analysis of the deposited data

Results flagged for a closer look

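The interaction term tested the difference between days directly, and it was called for 5780 probe sets. Among genes, 42 were called on both days in opposite directions. The 4 largest of these were Psca, with an interaction of 5.38, Iigp1 with -3.57, Tpbpb with 3.17 and Ifit3 with -3.14. Psca and Tpbpb were higher in co-transfer than in rat-only sites on day 9 and lower on day 7, and Iigp1 and Ifit3 were lower on day 9 and higher on day 7. On day 7 the run cannot be told apart from the group for any of them.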

How the results depend on the processing

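The counts of probe sets called in the interaction, called on day 9 and changed on day 9 only stayed within 1.5 times their reported values under all alternatives run. Leaving out each array in turn gave 4210 to 5644 calls in the interaction, 5237 to 7414 on day 9 and 3444 to 4469 on day 9 only. The lone array left in a group was then assumed to vary like the other groups. A fit to the 4 day 9 arrays of the shared run, chosen after seeing the data, called 6490 on day 9. A limit of 0.25 in place of 0.5 for the day 7 difference, also chosen after seeing the data, left 3755 changed on day 9 only.

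The 214 calls of day 7 depended on the fit. They numbered 76 without the filter, 104 with only the 9 arrays of rat sites, 98 with hybridisation date as a block, 333 with array weights and 407 with a trended and robust variance prior. Leaving out each array gave 34 to 174, with 34 without rat-only replicate 1 of day 7 and 35 without replicate 2. The cause was not tested. With the replicate number as a block, 4908 probe sets were called in the interaction, 4064 on day 9 only, 7130 on day 9 and 58 on day 7. The deviations of arrays numbered 1 from their group means correlated between -0.15 and 0.0904 over 15 pairs of groups. They show no clear shared shift by replicate number, but cannot show whether the samples were paired.

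Of 129 named genes, 119 kept their call under every alternative run, 10 lost it under at least 1, and 0 reversed. Quantile normalization moved the median interaction over all tested probe sets to -0.00823. Dim probe sets are limited by their background, since no detection calls were used here.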

Other observations

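Other lists held genes with wide differences of both signs. Of 10 tested adipocyte genes, 1 was called higher and 2 lower, a share near the 28.6% of all genes, and 2 were called higher without co-transfer replicate 2 of day 7 or rat-only replicate 1 of day 9. Lpl, the lipoprotein lipase gene, had an interaction of -3.23 and Fabp4, a fatty acid carrier gene, 2.40. Lpl had signals of 691 and 701 in co-transfer sites on day 9, against 5698 and 7974 in rat-only sites on day 9, and Fabp4 had 12560.1 and 12957 in co-transfer sites on day 9, against 2768 and 3007 in rat-only sites on day 9. Of 19 tested cholesterol synthesis genes, 8 were called higher and 0 lower, but the 8 became 2 without rat-only replicate 1 of day 9, 3 without co-transfer replicate 1 of day 9, 4 without rat-only replicate 2 of day 7, and 5 without rat-only replicate 1 of day 7 or co-transfer replicate 2 of day 9. Arg1 and Arg2, the arginase genes, had interactions of -2.96 and -2.27, and Arg2 had 296 and 336 in co-transfer sites on day 9, against 1316 and 1287 in rat-only sites on day 9.

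Genes of DNA replication and mitosis were called about as often as all genes, of which 28.6% were. In 27 of 44 the co-transfer arrays of day 9 lay below the other 7 arrays. Among all genes, 28.1% had them above or below the other 7. The list of D cyclins and cyclin-dependent kinase inhibitors was called more often, with 5 of 14 tested genes higher and 2 lower. Without the filter on dim probe sets these counts were 3 and 0. Of 44 tested genes of DNA replication and mitosis, 3 were called higher and 10 lower, and the 10 became 4 without rat-only replicate 1 of day 7, rat-only replicate 2 of day 9 or either co-transfer replicate of day 9, and 5 without rat-only replicate 2 of day 7 or replicate 1 of day 9. The ribonucleotide reductase genes Rrm2 and Rrm1 were among the 3 that rose, with interactions of 1.79 and 1.13. Rrm2 had 23140.3 and 24696 in co-transfer sites on day 9, against 6882 and 6633 in rat-only sites on day 9. The zinc transporter gene Slc30a2, named after its value was seen, was at 2.31 and Slc39a4, another, at -2.62. The gp130 receptor subunit gene Il6st was at 1.48 and the cytokine gene Il11 at -1.47.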
